A study of Columba livia with 9 samples.

Results

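In the bursa of Fabricius (BF) of pigeon squabs, 112 of 13072 mRNAs met a set of conditions for a highest level at 26 days of age. They were chosen by their measured values. TPM, a transcript abundance corrected for length and library size, was first divided by the library median over the 10027 mRNAs above 0.5 TPM in all 9 libraries, which gives the scaled TPM once multiplied by a constant common to all libraries. An mRNA was a member when its mean over the 9 libraries was at least 2 TPM, when each of the 3 libraries at 26D lay above each of the 6 libraries at 1D and 13D, and when its 26D mean exceeded the higher of both earlier stage means by at least 0.5 on the log2 scale, with 0.01 library medians added to each mean. At most 150 mRNAs were to be taken, and all 112 that met these conditions were kept. Since the 26D values chose the members, their levels at 26D are given as a description with no test. Gene symbols were looked up by NCBI gene ID in RefSeq (assembly bColLiv1.pat.W.v2), which named 85 members with a gene symbol and 19 with a LOC number, while 8 members carried only an NCBI gene ID.

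The BF is a lymphoid organ of birds that lies next to the cloaca, and its follicles are where B lymphocytes multiply and diversify their receptors. B cells leave it for the spleen, caecal tonsils and blood, while dendritic cells, macrophages, a few T cells, a surface epithelium and connective tissue make up the rest of the organ. A bulk RNA profile of the organ holds all of these cells in a single value per gene.

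The study compared White King pigeons (Columba livia), with no treatment named, at 3 ages, called 1D, 13D and 26D after their age in days, all females, with 3 squabs and 3 libraries at each age. Strand-specific libraries were made from total RNA after ribosomal RNA had been removed. Each library came from the BF of a different squab, and in such bulk samples fewer cells of a type and less RNA per cell cannot be told apart in any value below. The 11 measured B lineage markers, of 20 looked for, summed to 399 to 714 scaled TPM at 1D, 1087 to 1158 at 13D and 855 to 1516 at 26D. CD79B, a chain of the B cell receptor, was among them at 115 to 254 scaled TPM at 1D, 315 to 486 at 13D and 338 to 651 at 26D. The tissue thus carried markers of B cells, which do not tell the BF from other organs that hold B cells.

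Library 26D replicate 1 stood apart before any member was considered. Its library median was 5.95 TPM, against 10.8 to 19.9 TPM in the other 8 libraries, and a single lncRNA held 39.0% of its TPM, against 13.9% to 30.6% in the others. The mRNAs whose symbols start with RPL or RPS, nearly all of them for ribosomal proteins, held 33.4% of its mRNA TPM, against 16.0% to 28.0%. Without this library, 68 of the 112 members still met the conditions.

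Membership also turned on the scaling. With TPM as deposited, the median log2 fold change over all mRNAs in 26D vs. 13D was -0.53. On those values 4 members met the conditions (BCL2A1, TTLL2, LCAT and LOC102089808), and 43 of the 112 had a ratio below 0. With TPM divided by its total over all mRNAs, 17 members met them. With median-of-ratios factors 86 did, and with quantile normalization 75 did. In 12 settings, which were median-of-ratios factors, the median over all listed mRNAs, quantile normalization and the omission of each library in turn, 48 members met the conditions every time. The omission of a library leaves fewer values that could overlap, and 104 to 112 members then kept all 26D libraries above the earlier ones. TPM as deposited, total mRNA TPM and the median in place of the mean of the 3 libraries were not among the 12 settings. Among these 48 were BCL2A1, CCR6, CX3CR1, CD96, CD44, ITGA4, VAV3, TLR7, IRF5, SPIC, MPEG1, ALOX5, LPCAT2, GRN, LCAT and SOD3. CD83, SLA, SAMSN1, TNFAIP8, TMSB4X and 12 of 13 members with a role in RNA processing were not.

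**Figure D1:**
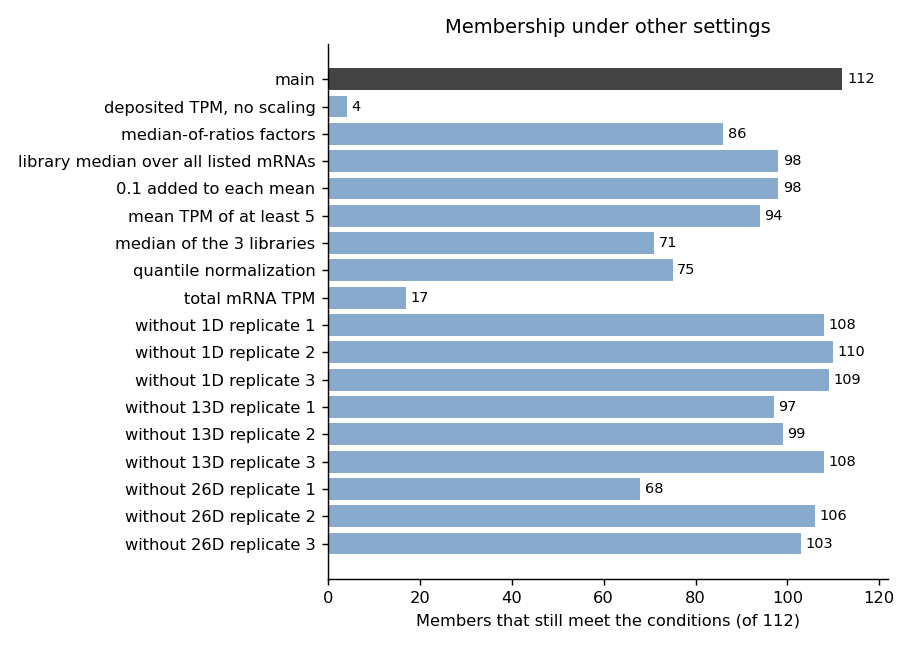
Members that still met the conditions (x axis, number of mRNAs, of 112) under each setting (y axis), with the main setting in dark grey. The bars for TPM as deposited (4) and for total mRNA TPM (17) are the shortest, and among the omitted libraries 26D replicate 1 costs the most members (68 kept).

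Among all 13072 mRNAs, 247 had every 26D library above the 6 earlier ones (1.89%) and 272 had every 26D library below them (2.08%). Of the 247, 209 had a mean of at least 2 TPM, and 97 of these 209 missed the ratio of 0.5. The mirrored conditions for the lowest level at 26D were met by 78 mRNAs. For comparison, 13D was the highest stage by the same conditions for 67 mRNAs and 1D for 992. These counts were part of the choice of members and carry no test.

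The members' log2 ratio, the 26D mean over the higher earlier mean, had a median of 0.78, which is 1.72 times, and ran between 0.50 and 2.35. It was over 1 for 31 members, over 1.5 for 8 and over 2 for 1. The median of the members' stage means was 13.0 scaled TPM at 1D, 16.5 at 13D and 28.6 at 26D, while that of all mRNAs was 8.56, 7.60 and 7.56. Levels were mostly moderate, with 20 members over 100 scaled TPM and 21 under 10 at 26D. All members but 4 were above 0.5 TPM in every library.

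**Figure D2:**
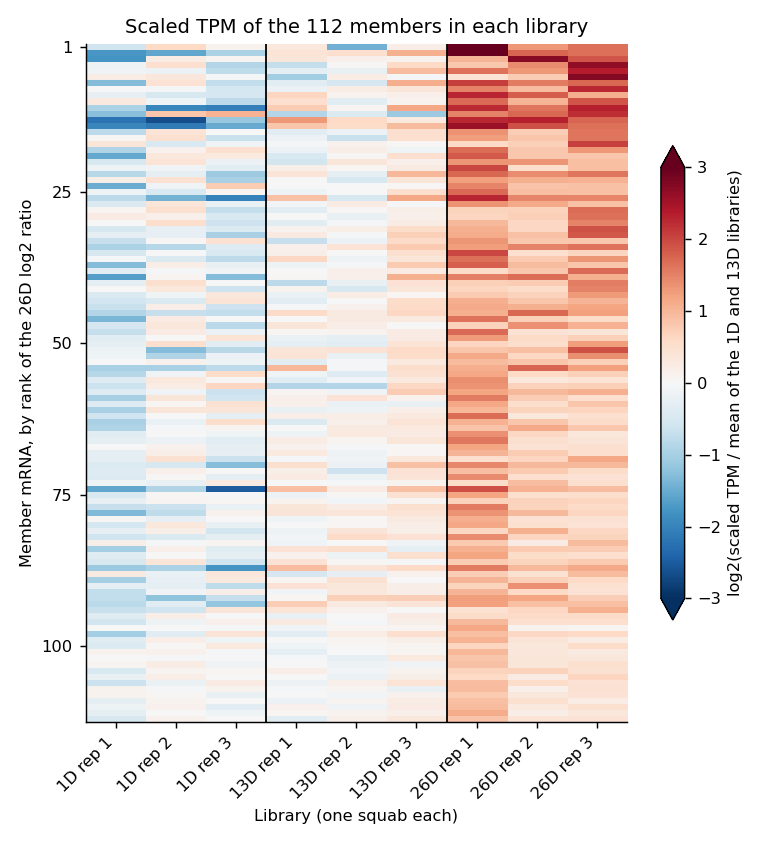
Each row is a member, ordered by the log2 ratio that chose it, and each column a library; the colour gives the log2 of scaled TPM over the mean of the 6 libraries at 1D and 13D (limits -3 and 3). The 26D columns are red in every row because the members were chosen so, with 26D replicate 1 or replicate 3 the darkest of the 3 in most rows, and the blue cells gather at 1D.

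A total of 56 members could be put in 6 groups by a textbook role that is well known, mostly from mammals. These groups were drawn up after the values were seen and serve only to order the description. The first holds 10 mRNAs for signalling and survival in lymphocytes. BCL2A1, a BCL2 family protein that protects lymphocytes from apoptosis, had 4.56, 5.26 and 7.95 scaled TPM at 1D, 20.4, 21.8 and 32.3 at 13D and 160.4, 51.4 and 48.7 at 26D. The 26D mean was 86.8 ± 63.7 scaled TPM, against 24.8 ± 6.49 at 13D (SD, n = 3 each), a log2 ratio of 1.80. The stages did not overlap at all, and 26D replicate 1 was far above the other 26D libraries. Without replicate 1 the ratio was 0.99. In TPM as deposited its libraries had 7.04, 4.65 and 9.08 TPM at 1D, 27.8, 30.2 and 27.0 TPM at 13D and 74, 47.3 and 46.6 TPM at 26D, in the same order of stages.

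TNFAIP8, a TNF-induced regulator of apoptosis, had 49.6, 70.5 and 50.6 scaled TPM at 1D, 78.8, 70.4 and 96.6 at 13D and 279.7, 98.2 and 109 at 26D. Here 26D replicates 2 and 3 were just above the highest 13D library, and without replicate 1 its ratio of 0.98 was 0.32. SLA, the Src-like adaptor that dampens antigen receptor signalling, had 15.9, 24.9 and 8.25 scaled TPM at 1D, 87.9, 55.4 and 87.9 at 13D and 178, 95.9 and 88.5 at 26D. The lowest 26D library was level with the highest at 13D, both stages were far above 1D, and without 26D replicate 1 the ratio of 0.65 was 0.24. VAV3, an exchange factor for small GTPases downstream of the B cell receptor, had 20.1, 36.3 and 18.6 scaled TPM at 1D, 37.6, 28.8 and 27.1 at 13D and 47.4, 44.9 and 48.8 at 26D. The 26D libraries of VAV3 were close to each other, and a 1D library was nearly as high as the highest 13D one. Further members of this group were chosen after their values were seen. SAMSN1, an adaptor known in mice to restrain B cell activation, had 54.4, 138 and 71.6 scaled TPM at 1D, 120.1, 146 and 118 at 13D and 318, 184 and 153 at 26D. The Src family kinase FYN had 24.9, 23.5 and 33 scaled TPM at 1D, 27.3, 26.4 and 29.7 at 13D and 40.3, 52.4 and 38.3 at 26D. SAMSN1 was highest in 26D replicate 1 and FYN in replicate 2, each only a little clear of the earlier libraries in the lowest 26D library. The Ras family exchange factor RASGEF1A had 13.4, 18.8 and 10.4 scaled TPM at 1D, 38.7, 27.9 and 30.7 at 13D and 54.5, 43.7 and 43.5 at 26D. RGS18, a regulator of G protein signalling, was placed in this group although it is best known in platelets. RGS18 had 13.8, 19 and 8.53 scaled TPM at 1D, 12, 8.53 and 19.2 at 13D and 32, 24.2 and 41.2 at 26D. RASGEF1A separated all 3 stages, whereas 1D and 13D of RGS18 overlapped and replicate 3 was its highest 26D library. The thrombocyte markers (9 of 10 measured) summed to 33.2 to 49.9 scaled TPM at 1D, 17.3 to 20.8 at 13D and 15.1 to 46.2 at 26D. Among the 26D libraries this sum was also highest in replicate 3, and its part in the level of RGS18 was not tested.

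The second group holds 9 surface receptors and adhesion proteins. CCR6, the receptor for the chemokine CCL20, had 4.95, 4.24 and 4.17 scaled TPM at 1D, 9.19, 6.29 and 6.51 at 13D and 28.9, 20.6 and 12.6 at 26D. The 26D mean was 20.7 ± 8.11 scaled TPM, against 7.33 ± 1.62 at 13D (SD, n = 3 each), a log2 ratio of 1.48. Its 26D libraries differed more among themselves than those of either earlier stage, and all lay above the earlier ones. CX3CR1, the fractalkine receptor, had 11.4, 13.8 and 5.12 scaled TPM at 1D, 10.02, 7.24 and 13 at 13D and 23.8, 21 and 21 at 26D. Its 26D libraries were close to each other, and 1D and 13D overlapped. ITGA4, the integrin chain that pairs with beta 1 or beta 7 in lymphocyte homing, had 23.7, 24.3 and 14.7 scaled TPM at 1D, 34.7, 27.8 and 47.1 at 13D and 62, 52.7 and 104 at 26D. Replicate 3 was the highest at 26D, and the other 26D libraries were only a little above the highest at 13D. CD83, found on mature dendritic cells and activated lymphocytes, had 14.4, 16 and 9.04 scaled TPM at 1D, 58.4, 40.7 and 47.2 at 13D and 90.7, 60.7 and 68.6 at 26D. Most of its difference from 1D was already there at 13D.

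Other receptors were named after their values were seen. CD96, a nectin-binding receptor of T and NK cells, had 3.91, 6.84 and 4.61 scaled TPM at 1D, 5.05, 6.36 and 5.20 at 13D and 13.6, 11.7 and 9.83 at 26D. CD44, the hyaluronan receptor, had 27.3, 21.3 and 16.6 scaled TPM at 1D, 43.7, 25.8 and 37 at 13D and 89.9, 49.4 and 71.6 at 26D. CD244, a receptor of the SLAM family, had 15.9, 36.2 and 25.3 scaled TPM at 1D, 43.7, 46.6 and 27 at 13D and 68, 56 and 55.4 at 26D. The 26D libraries of CD96 were well above the rest, those of CD44 and CD244 less so. PLXNC1, a semaphorin receptor, had 28.2, 40.1 and 18.3 scaled TPM at 1D, 22.1, 26.9 and 32.7 at 13D and 55.4, 43.3 and 79.2 at 26D. Its highest 1D library was close to the lowest at 26D. The NK and cytotoxic markers (6 of 12 measured) summed to 12.7 to 18.4 scaled TPM at 1D, 13.8 to 32.4 at 13D and 24.9 to 98.1 at 26D, and the T lineage markers (15 of 20) to 31.1 to 44.1, 39.4 to 55.3 and 44.8 to 109 at the same ages. Both sums were highest in 26D replicate 3, which was the lowest 26D library for CD96 and CD244. The part of these cells in the levels of CD96 and CD244 was not tested.

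**Figure D3:**
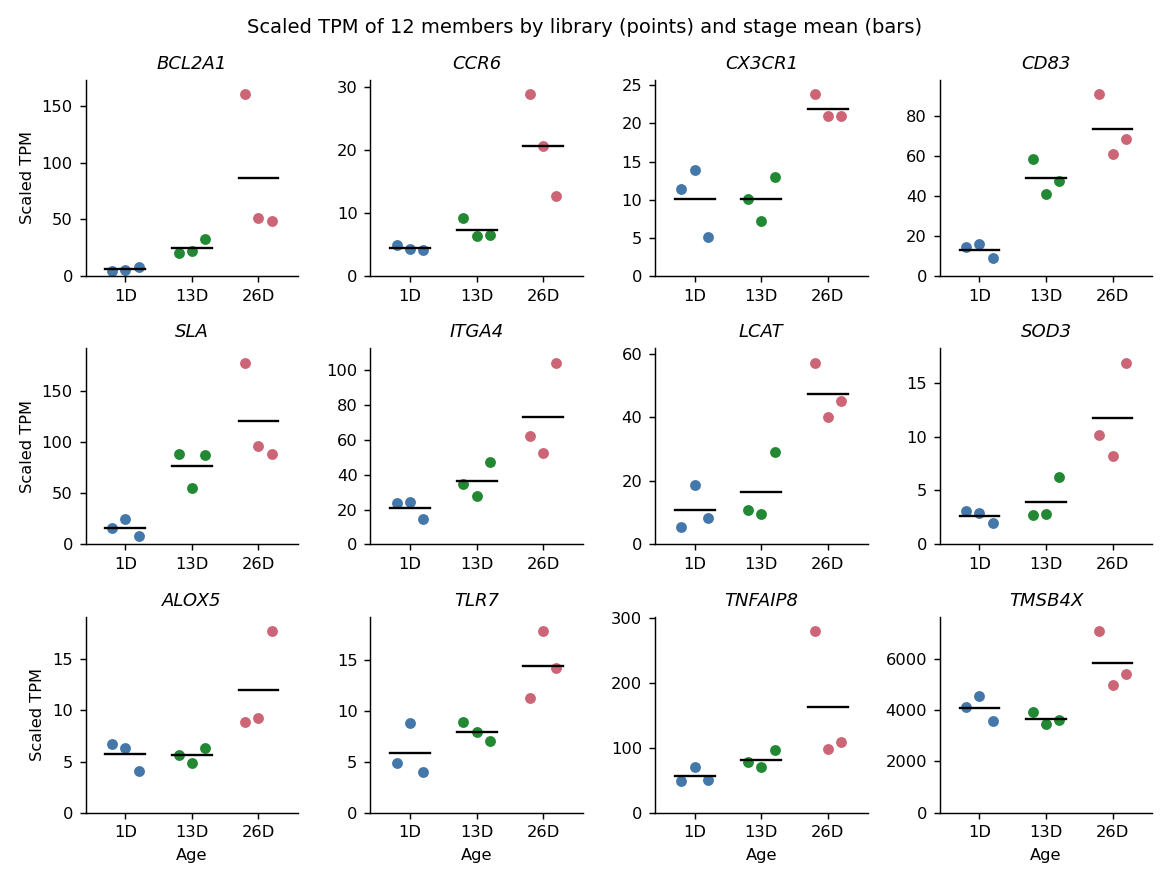
Scaled TPM (y axis, linear from 0) of 12 members at 1D, 13D and 26D (x axis), with a point for each library in the order of its replicate number and a bar for the mean of 3. BCL2A1, SLA and TNFAIP8 are pulled up by 26D replicate 1, ALOX5 and ITGA4 by replicate 3, and CD83, SLA and BCL2A1 are already higher at 13D than at 1D.

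The third group holds 10 mRNAs with roles known in phagocytes. TLR7, the sensor of single-stranded RNA, had 4.86, 8.76 and 3.97 scaled TPM at 1D, 8.90, 7.95 and 7.01 at 13D and 11.2, 17.8 and 14.1 at 26D. The highest 1D and 13D libraries were similar, and 26D replicate 2 was the highest of all. CTSA, the lysosomal carboxypeptidase cathepsin A, had 30.3, 53.4 and 30.05 scaled TPM at 1D, 31.3, 29.4 and 49.98 at 13D and 58.1, 53.7 and 89.8 at 26D. SLC40A1, the iron exporter ferroportin, had 45.5, 43.7 and 25.2 scaled TPM at 1D, 85.1, 53.8 and 111 at 13D and 164, 120.0 and 118 at 26D. For CTSA a 1D library was level with the lowest at 26D, and for SLC40A1 a 13D library was close to it. The members of this group that follow were named after their values were seen. ALOX5, which makes leukotrienes, had 6.72, 6.34 and 4.10 scaled TPM at 1D, 5.62, 4.86 and 6.33 at 13D and 8.87, 9.25 and 17.7 at 26D. LPCAT2, an enzyme of platelet-activating factor synthesis, had 6.41, 8.43 and 3.72 scaled TPM at 1D, 4.91, 6.23 and 6.84 at 13D and 9.60, 9.87 and 19.5 at 26D. Both were nearly flat over the first 2 stages and highest in 26D replicate 3.

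MPEG1, a pore-forming protein of macrophages, had 5.88, 9.86 and 6.98 scaled TPM at 1D, 4.08, 6.02 and 9.44 at 13D and 11.6, 12 and 20.3 at 26D. SPIC, an Ets family factor of red pulp macrophages and B cells, had 63.1, 37 and 61 scaled TPM at 1D, 92.3, 59 and 101 at 13D and 152, 106 and 182 at 26D. Both were highest in 26D replicate 3. IRF5, a transcription factor downstream of Toll-like receptors, had 1.61, 2.87 and 3.19 scaled TPM at 1D, 3.02, 3.65 and 3.71 at 13D and 5.46, 6.64 and 5.29 at 26D. GRN, which encodes progranulin, had 20.7, 22.9 and 40.9 scaled TPM at 1D, 24.1, 30.5 and 44.7 at 13D and 65, 54.6 and 62.3 at 26D. The 26D libraries of IRF5 and GRN were close to each other. In this group 5 of 10 members were highest in 26D replicate 3. Of the 10027 mRNAs above 0.5 TPM in every library, 30.1% were highest there among the 26D libraries, and nothing is read from the difference. The macrophage markers (10 of 16 measured) summed to 109 to 267 scaled TPM at 1D, 83.3 to 132 at 13D and 131 to 337 at 26D, and were also highest in 26D replicate 3. At 26D, replicate 3 was likewise highest for fibroblast and matrix (642 scaled TPM), endothelial (105) and smooth muscle markers (187). Replicate 1 had 297, 45.6 and 45 for these, and replicate 2 had 234, 39.1 and 51.6. The B lineage (855, against 1516 and 1399), proliferation and epithelial sums were lowest in replicate 3. Plasma cell and dendritic cell sums were highest in replicate 1, and skeletal muscle in replicate 2. CSF1R, a defining receptor of macrophages, was at 16.1 to 46.6 scaled TPM at 1D, 17.5 to 21.1 at 13D and 23.9 to 46.1 at 26D, so that the earlier and the 26D libraries overlapped. The part of macrophages or of other cells in the levels of the group was not tested.

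The fourth group, of 5 mRNAs for lipid metabolism and redox reactions, held some of the highest ratios. It also held the lowest ratio of all members, 0.50 for GSTO1. LCAT, which esterifies the cholesterol of lipoproteins, had 5.56, 18.6 and 8.23 scaled TPM at 1D, 11, 9.59 and 29 at 13D and 57.2, 40.00 and 45.2 at 26D. The 26D mean was 47.5 ± 8.83 scaled TPM, against 16.5 ± 10.8 at 13D (SD, n = 3 each), a log2 ratio of 1.52. It also met the conditions in TPM as deposited, at 8.59, 16.4 and 9.40 TPM at 1D, 14.9, 13.3 and 24.3 TPM at 13D and 26.4, 36.8 and 43.2 TPM at 26D. SOD3, the extracellular superoxide dismutase, had 3.09, 2.92 and 1.94 scaled TPM at 1D, 2.75, 2.82 and 6.25 at 13D and 10.2, 8.15 and 16.8 at 26D. Its 1D and 13D libraries overlapped, and all 26D libraries lay above them. DGAT2, which forms triacylglycerol and was named after its values were seen, had 13.5, 16.7 and 8.73 scaled TPM at 1D, 14.5, 9.66 and 17.3 at 13D and 20.8, 19.7 and 37.5 at 26D. It was highest in 26D replicate 3, as was SOD3.

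The remaining 2 groups hold proteins that most cells use. Their median ratios were the lowest of the 6 groups, but that of the lymphocyte signalling group, 0.65, was close. Their highest single ratios were 1.07 for RNA processing and 0.99 for the other group. The 13 mRNAs for RNA processing and ribosome assembly had a median ratio of 0.53, and 12 of them were highest in 26D replicate 1. SLIRP, which binds mitochondrial mRNAs, had 127, 205 and 169 scaled TPM at 1D, 133, 156 and 204 at 13D and 434, 207 and 220.3 at 26D. Replicates 2 and 3 of SLIRP at 26D were only just above the highest 1D library. The 9 mRNAs for mitochondrial, ER and Golgi proteins had a median ratio of 0.62, and 7 were highest in 26D replicate 1. Of the 10027 mRNAs above 0.5 TPM in every library, 39.8% were highest in replicate 1 among the 26D libraries. Nothing is read from the difference to the counts of these 2 groups. SDHD, an anchor subunit of succinate dehydrogenase, had 90.6, 120.1 and 105 scaled TPM at 1D, 104, 93.9 and 118 at 13D and 159, 125 and 165 at 26D. SDF2L1, an ER protein induced in the unfolded protein response, had 33.9, 24.6 and 35.6 scaled TPM at 1D, 19.7, 23.8 and 31 at 13D and 46.6, 38.7 and 54.5 at 26D. Neither was clear of the earlier stages by much. In 26D replicate 1, the median level of the oxidative phosphorylation genes was 147 scaled TPM, against 61.5 to 104 in the other 8, and its part in these ratios was not tested.

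The most abundant member lay outside these groups. TMSB4X, thymosin beta 4, which binds actin monomers, had 4120.2, 4546 and 3589 scaled TPM at 1D, 3922, 3472 and 3606 at 13D and 7074, 4960.1 and 5405 at 26D. Its ratio was 0.51 and turned negative, at -0.16, in TPM as deposited, at -0.016 on total mRNA TPM and at -0.43 after quantile normalization. Of the IDs with no symbol, GeneID:102098631 had 263, 256 and 182 scaled TPM at 1D, 232, 305 and 337 at 13D and 733, 498 and 1259 at 26D. GeneID:102098807 had 219.6, 507 and 381 scaled TPM at 1D, 306, 337 and 534 at 13D and 962, 635 and 1163 at 26D. Both were highest in 26D replicate 3.

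Several of the highest ratios belonged to members with a LOC number, whose roles are unknown here. LOC102089808 had the largest ratio, with 6.96, 15.9 and 11.3 scaled TPM at 1D, 13.2, 3.87 and 12.2 at 13D and 117, 26.1 and 33.2 at 26D. The 26D mean was 58.7 ± 50.4 scaled TPM, against 11.4 ± 4.47 at 1D (SD, n = 3 each), a log2 ratio of 2.35. The level in 26D replicate 1 was 4.47 times that in replicate 2, and all 26D libraries were clear of the others. Without 26D replicate 1 the ratio of LOC102089808 was 1.39, below those of LOC110362295 (2.04), LOC102093877 (2.03), LOC106146087 (1.91) and SOD3 (1.62) in the same setting. LOC110362295, which RefSeq annotates as a lncRNA although the deposited values list it as an mRNA, had 0.309, 1.24 and 1.13 scaled TPM at 1D, 1.37, 1.19 and 1.15 at 13D and 2.16, 7.03 and 3.95 at 26D. LOC102093877 had 2.01, 3.16 and 1.23 scaled TPM at 1D, 1.37, 2.31 and 3.41 at 13D and 3.94, 6.03 and 14.3 at 26D. These were among the members with the lowest levels, and the first was highest in 26D replicate 2 and the other in replicate 3. In LOC106146087, with 13.3, 14.2 and 10.8 scaled TPM at 1D, 5.50, 13.3 and 10.9 at 13D and 15, 19.3 and 76.7 at 26D, replicate 3 was far above the other 26D libraries, and without it the conditions were no longer met. LOC102093527 had 22.7, 17.1 and 10.8 scaled TPM at 1D, 26.6, 14.8 and 20.1 at 13D and 60.7, 37.9 and 68.8 at 26D. LOC102085005 had 5.32, 22.6 and 26.1 scaled TPM at 1D, 6.96, 9.58 and 5.97 at 13D and 36, 42.1 and 58.8 at 26D. LOC102085005 had its lowest mean at 13D, but 1D and 13D overlapped, as they did in LOC102093527.

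The spread of the members within each stage is given as a description. The median coefficient of variation of the members was 27.0% at 1D, 18.4% at 13D and 26.0% at 26D, while over the 10027 mRNAs above 0.5 TPM everywhere it was 23.7%, 15.8% and 21.6%. The highest 26D library was replicate 1 for 69 members (61.6%), replicate 2 for 12 and replicate 3 for 31. Among the 10027 mRNAs it was replicate 1 for 39.8%, replicate 2 for 30.0% and replicate 3 for 30.1%. The members were chosen by their 26D mean, which a single high 26D library raises. Nothing is therefore read from the difference between these shares. Replicate 1 exceeded 1.5 times the mean of the other 26D libraries in 35 members, replicate 3 did so in 16 and replicate 2 in 2. The highest 26D library was less than 1.5 times the lowest in 40 members and more than 3 times in 5. The counts by these fold limits were not taken over all mRNAs, so they have no background here. The median over the members in each library was 11.4, 15.4 and 11.9 scaled TPM at 1D, 14.3, 14.6 and 18.2 at 13D and 32.5, 23.8 and 28.2 at 26D. Each of the 26D squabs thus lay above all earlier ones, as the choice of members sets. As a share of the TPM of all mRNAs they held 1.56% to 1.91% at 1D, 1.44% to 1.84% at 13D and 1.75% to 2.82% at 26D, with the lowest 26D share in replicate 1, inside the range of the earlier libraries.

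**Figure D4:**
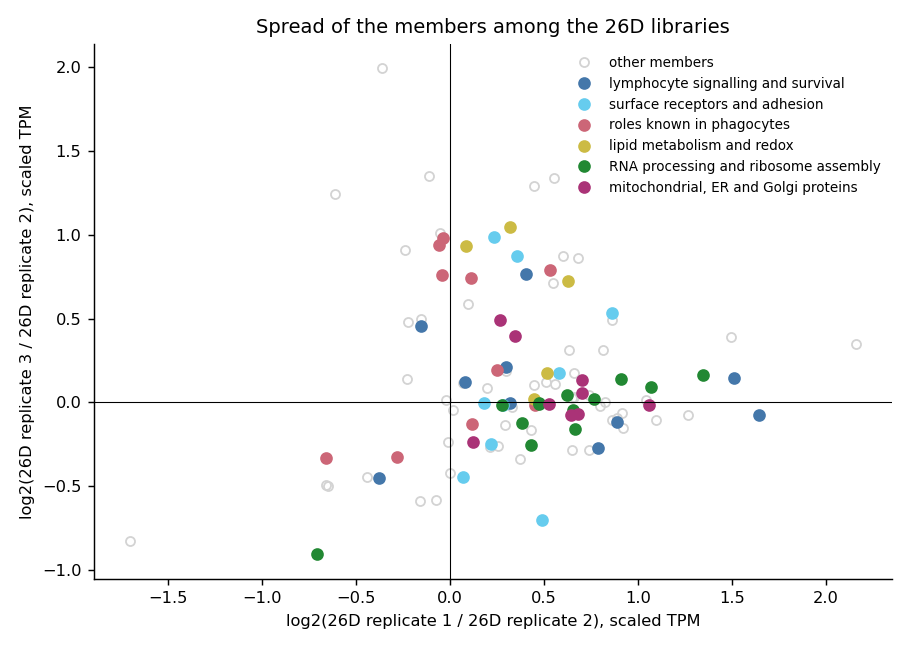
Each point is a member, placed by the log2 ratio of 26D replicate 1 to replicate 2 (x axis) and of replicate 3 to replicate 2 (y axis) in scaled TPM, and coloured by role group. Members for RNA processing and for mitochondria, ER and Golgi mostly lie right of 0 and near 0 on the y axis. The phagocyte group and the lipid and redox group reach high on the y axis, as do some other members.

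The members' values between the first 2 stages are given next. The conditions used the libraries of 1D and 13D, since a 26D level above both was asked for, so the members' counts between these stages are not independent of how they were chosen. The shares among all mRNAs are given as background, and nothing is read from their difference to the members' shares. With limma on log2(scaled TPM + 0.5) over all 13072 mRNAs, with calls at a change over 1 in either direction on the log2 scale and a p under 0.05 after Benjamini-Hochberg adjustment, 11 of the 112 members were called higher at 13D than at 1D (9.82%) and 0 were called lower. Among all mRNAs 257 were higher (1.97%) and 984 lower (7.53%), and among the 10044 mRNAs with a mean of at least 2 TPM, as all members have, 2.41% were higher and 6.94% lower. The median log2 fold change was 0.26 over the members, 0.09 over these 10044 mRNAs and -0.0032 over all mRNAs, and 93 of 112 members were above 0. Over the members it was 0.12 with 76 above 0 without 1D replicate 1, and 0.17 with 78 above 0 without 13D replicate 3. At an unadjusted p under 0.05 stood 27 of the 112 members and 4220 of all 13072 mRNAs. The members called higher numbered 4 without 1D replicate 1 and 4 without any one of the 13D libraries, and 12 without 1D replicate 2 or 3. Without 1D replicate 1, 1 member was called lower. The 1241 calls over all mRNAs numbered 407 without 1D replicate 1, and 273, 142 and 334 without 13D replicate 1, 2 and 3.

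The members called at 13D were led by SLA, which rose by a log2 fold change of 2.30 ± 0.38 (SE, adjusted p = 0.0138 by limma). NEUROD6, a transcription factor best known in neurons, rose by 2.09 ± 0.35 (limma, adjusted p = 0.0141). NEUROD6 had 0.625, 0.455 and 1.31 scaled TPM at 1D, 7.09, 4.36 and 3.54 at 13D and 13.9, 14.6 and 9.77 at 26D. Both BCL2A1 (1.98 ± 0.27, limma adjusted p = 0.00835) and CD83 (1.88 ± 0.25, limma adjusted p = 0.00827) kept their calls in all 16 alternatives, whereas SLA lost its call without 1D replicate 1 or without any one of the 13D libraries, and NEUROD6 without 1D replicate 1 or 13D replicate 1 or 2. In BCL2A1, CD83, NEUROD6 and SLA each of the 13D libraries exceeded each of the 1D libraries. A further 6 called members, named after their values were seen, were TTLL2, CDH2, RASGEF1A, LOC110356149, SPDYA and CCN4, with log2 fold changes between 1.05 for CCN4 and 1.98 for TTLL2. CDH2 encodes N-cadherin, SPDYA an activator of cyclin-dependent kinases, TTLL2 a tubulin-modifying enzyme and CCN4 a secreted matrix-associated protein.

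For 101 members no change between 13D and 1D was called. Their fold changes need not be small, since SLC40A1 had 1.103 ± 0.32 (limma, adjusted p = 0.0595) and ITGA4 0.79 ± 0.27 (limma, adjusted p = 0.0875). LOC102085005 had the lowest value of all members, -0.96 ± 0.54 (limma, adjusted p = 0.265). ALOX5 (-0.01), CX3CR1 (0.07) and SLIRP (-0.02) were among the members with a log2 fold change close to 0.

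**Figure D5:**
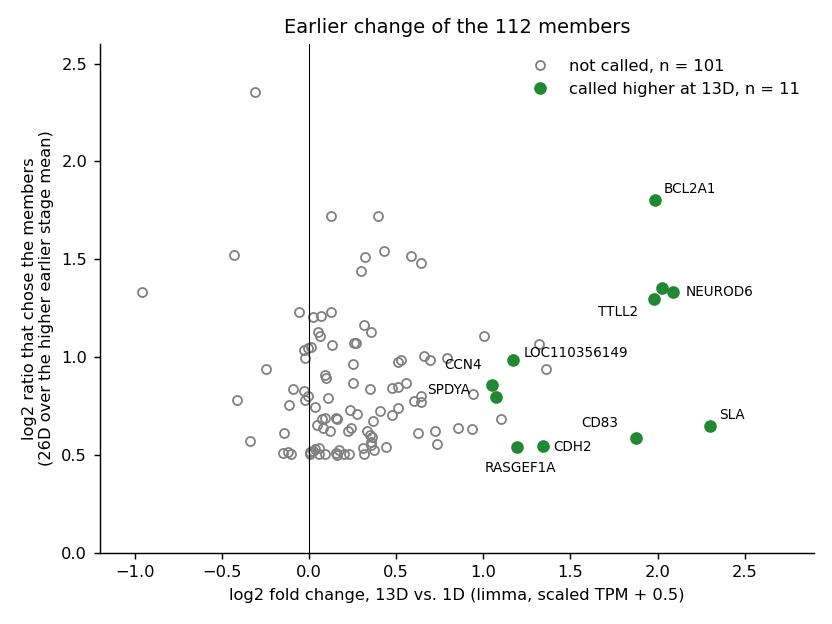
The log2 fold change of each member in 13D vs. 1D (x axis, limma on scaled TPM + 0.5) is set against the log2 ratio that chose it (y axis). The 11 filled points were called higher at 13D and the 101 open points were not called; most points lie right of 0.

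Over all mRNAs, limma called 192 mRNAs higher (1.47%) and 694 lower (5.31%) in 26D vs. 1D. Between 26D and 13D it called 0 mRNAs higher (0%) and 0 lower (0%), with 870 at an unadjusted p under 0.05, and between 0 and 1 calls under the other settings. The paper, which used edgeR at the same thresholds, did report some differentially expressed mRNAs between these ages. The absence of a limma call is thus not evidence that no mRNA differed. The 26D vs. 1D count fell to 9 without 26D replicate 2, to 28 without 26D replicate 1 and to 17 without 1D replicate 1. With TPM as deposited, 67 mRNAs were called higher and 1642 lower in 26D vs. 1D, and after quantile normalization 187 were higher and 344 lower. In 13D vs. 1D quantile normalization gave 263 higher and 476 lower. Members are left out of the counts of the 26D comparisons given below.

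In all, 12 members belonged to any of 46 gene lists of cell types and pathways, which together hold 946 measured mRNAs. The NF-kB list, to which BCL2A1 and TNFAIP8 belong, had 19 other measured genes, and limma called 0 of them in 13D vs. 1D, with 3 at an unadjusted p under 0.05, and 0 in 26D vs. 1D, with 4 such genes. Their median log2 fold changes were 0.17 and 0.16. The apoptosis list, which shares BCL2A1, had 18 others. In 13D vs. 1D, FAS, a death receptor, rose by 1.13, while BCL2, a survival protein, fell by 1.39 and CASP6 by 1.04 on the log2 scale. In 26D vs. 1D, FAS rose by 1.16 and BCL2 fell by 1.44. BCL2A1 and BCL2 thus had opposite signs in 13D vs. 1D.

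Of the B cell receptor signalling list, 21 genes besides VAV3 were measured. In 13D vs. 1D limma called 6 of them higher and 0 lower, among them PIK3CD, a phosphoinositide kinase subunit, at 1.49 and BTK, a kinase B cells need, at 1.19 on the log2 scale. In 26D vs. 1D, 2 were higher and 0 lower, BLNK, an adaptor, at 1.20 and NFATC1, a transcription factor, at 1.24. Chemokines and their receptors, with CCR6 and CX3CR1 aside, had 14 measured genes. CXCR4 (1.24) and CXCR5 (1.07), which guide B cells, were higher in 13D vs. 1D, and CCL20 (-1.07), the ligand of CCR6, and ACKR4 (-1.16) were lower. CXCR5 alone was called in 26D vs. 1D. Of the 13 lymphocyte trafficking genes besides ITGA4, 4 were higher and 0 lower in 13D vs. 1D, and 2 were higher and 0 lower in 26D vs. 1D.

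Of the dendritic cell list, 8 genes besides CD83 were measured, and FLT3, a growth factor receptor, rose by 2.96 and LAMP3, of mature dendritic cells, by 1.09 in 13D vs. 1D. The list's sum including CD83 was 135 to 162 scaled TPM at 1D, 286 to 341 at 13D and 304 to 506 at 26D, so that 13D and 26D overlapped. Neither the 14 innate sensors besides TLR7 nor the 10 macrophage markers had a call by limma against 1D, with 3 and 2 at an unadjusted p under 0.05 for 13D and 1 and 1 for 26D. The macrophage markers had a median log2 fold change of 0.71 in 26D vs. 13D, where 6 of 10 had an unadjusted p under 0.05 and limma called 0 after adjustment. Besides SDHD, SDF2L1 and CTSA, limma called 0 of 49 oxidative phosphorylation genes in 13D vs. 1D, with 3 at an unadjusted p under 0.05, 3 of 22 secretory pathway genes, all lower, and 1 of 23 lysosome and autophagy genes, also lower.

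Some members were neighbours in the RefSeq assembly, which is not the assembly used by the authors. With no protein-coding gene between them lay LPCAT2 and LOC102091565, CCN4 and SLA, TLR7 and TMSB4X, and CLXN and RBM48, and with 1 gene between them LOC102093877 and SAMSN1, CCR6 and TTLL2, and LOC102085005 and CD244. CCN4 had 1.53, 1.73 and 1.67 scaled TPM at 1D, 4.14, 3.38 and 4.31 at 13D and 5.87, 9.28 and 6.59 at 26D, and its neighbour SLA was also called higher at 13D. TLR7 and TMSB4X differed in level by far more than in their ratio of 26D to the earlier stages. The genes of the 104 members with a length spanned a median of 9905 bases from first to last exon, introns included, against 19525 bases over 12387 mRNAs.

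At the edge of the conditions, the members just inside were CACUL1, a cullin-domain regulator of the cell cycle, UTP11, of the small ribosomal subunit assembly, and GSTO1, a glutathione transferase, at ratios of 0.51, 0.50 and 0.50. CACUL1 had 19.9, 24.2 and 17.5 scaled TPM at 1D, 24.1, 20.5 and 26.2 at 13D and 42.9, 27.2 and 30.6 at 26D. UTP11 had 37.7, 45.8 and 41.1 scaled TPM at 1D, 47, 48.5 and 50.4 at 13D and 97.8, 52 and 57.2 at 26D. GSTO1 had 31.5, 48.3 and 44.5 scaled TPM at 1D, 34.9, 48.6 and 56 at 13D and 79.8, 58.5 and 59.2 at 26D. Just outside were DDX49 at 0.50, CHGB at 0.50 and EDEM1 at 0.49. The ratios on both sides of the edge were much the same, and 26D replicate 1 was the highest library in all 3 members inside. Outside, it was also the highest in DDX49 and CHGB, while EDEM1 was highest in 26D replicate 3.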

How the data were processed

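The authors mapped clean reads to the pigeon genome Cliv_1.0 with STAR (2.6.0c), assembled transcripts with Cufflinks (2.1.1), merged them with TACO and quantified them with Kallisto. They deposited TPM for mRNAs and for lncRNAs, in separate tables, after dropping mRNAs that never exceeded 0.5 TPM and lncRNAs that never exceeded 0.1 TPM. TPM of both tables summed to 991214 to 997459 per library, and since the deposited values hold no counts, the counting error behind a single value is unknown.

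TPM was divided by the library median and multiplied by the geometric mean of the 9 medians. Each pair of stages was fitted with limma (3.58.1, R 4.3.3) on log2(scaled TPM + 0.5), with a trend in the prior variance and the 6 libraries of that pair, so a fold change is on this scale and understates the change of low mRNAs. The authors used edgeR, which needs counts, and it was not run here. The fit was run on simulated data with independent noise, planted changes and no library-wide shifts. That run cannot show how the fit behaves with the library-wide differences of the real libraries. Python (3.11.15) and matplotlib (3.10.9) drew the figures.

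The members and the gene lists were chosen with earlier results of these data known. The text names the 12 members with the highest ratio, the 6 with the highest 26D mean, up to 4 members of each list, up to 3 called in each direction in 13D vs. 1D, those at the edge and those the study names. At most 2 IDs with no symbol are printed, and other members are said to be chosen after their values were seen. Replicate numbers come from the labels, but each library is a different squab and the libraries were not paired. The alternatives were other scalings, pseudocounts, filters, fits and the omission of each library. Some items covered by this naming rule are not reported here. Sequences, qPCR and histology were not analysed here.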

Additional observations from a re-analysis of the deposited data

How the results depend on the processing

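Of all members, 4 met the conditions with TPM as deposited, 17 with total mRNA TPM, 71 with the median in place of the mean of the 3 libraries and 68 without 26D replicate 1. Leaving out each library in turn kept 68 to 110. Quantile normalization and total mRNA TPM were chosen after seeing the data. Among the members named by the stated rule, the ratio turned below 0 with TPM as deposited for SLA (-0.083), VAV3 (-0.051), CD83 (-0.10), SDF2L1 (-0.070), TMSB4X (-0.16), SDHD (-0.10), CACUL1 (-0.17), UTP11 (-0.23) and GSTO1 (-0.13), and for TMSB4X also with quantile normalization (-0.43) and total mRNA TPM (-0.016). Of the other members named in the text, CD244 (-0.11), RASGEF1A (-0.13), CDH2 (-0.078), RBM48 (-0.040) and SAMSN1 (-0.0076) were also below 0 with TPM as deposited. With TPM as deposited the median log2 fold change over all mRNAs in 26D vs. 13D was -0.53.

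In 13D vs. 1D the 1241 calls became 739 with quantile normalization and 142 to 1740 when each library was left out, the members called higher then numbered 4 to 12 and those called lower 0 to 1. In 26D vs. 1D the 886 calls became 1709 with TPM as deposited, 531 with quantile normalization, 1406 with all 9 libraries in a single fit and 9 to 1209 when each library was left out. In 26D vs. 13D the count of 0 became 1 with TPM as deposited, 1 with a pseudocount of 0.1 and 0 to 1 when each library was left out. Apart from the construction of each setting, the cause was not tested.

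With the number as a replicate block, calls against 1D numbered 883 at 13D and 461 at 26D, 0 mRNAs were called between 26D and 13D, and 9 members were called higher at 13D. Deviations of same-numbered libraries correlated at 0.42, -0.22 and 0.11 in 13D vs. 1D. They correlated at -0.26, -0.30 and -0.24 in 26D vs. 1D, and at -0.096, 0.32 and -0.0065 in 26D vs. 13D. Deviations from a mean of 3 libraries are tied to each other, so these values cannot show or exclude a shared batch. The libraries came from different squabs and were not treated as paired. With 3 squabs per stage and no counts, small differences of low mRNAs cannot be resolved.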

Other observations

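The same conditions, applied to the 19129 lncRNAs after their mRNA counterparts were seen and scaled by the mRNA library medians, were met by 51 lncRNAs, of which 4 carry an NCBI gene ID. Of all lncRNAs, 146 had every 26D library above the 6 earlier ones. These lncRNAs were chosen by the 26D values, so no test applies. G36975 had the highest ratio, 2.05, with 9.24, 9.09 and 10.2 scaled TPM at 1D, 4.25, 9.08 and 12.1 at 13D and 13.3, 24.1 and 82.1 at 26D, and replicate 3 stood far above the other 26D libraries. G36596, with a ratio of 1.85, was far more abundant, at 172, 256 and 158 scaled TPM at 1D, 115, 423 and 195 at 13D and 952, 525 and 1161 at 26D. G23043, with a ratio of 1.67, had 22.4, 32.5 and 31.5 scaled TPM at 1D, 24.8, 27.4 and 39.7 at 13D and 172, 62.7 and 58.3 at 26D, and was highest in 26D replicate 1. What these lncRNAs do is not known from the data used here.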
